A study of Canis lupus familiaris with 12 samples.

Results

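In dog muscle precursor cells made to express canine DUXC, a set of transcripts stood well above both the control cells and cells made to express human DUX4. These DUXC-selective genes were chosen by a rule on mean CPM (counts per 1000000 gene reads of a library). With 0.1 added to each group mean, the DUXC value had to be at least 4 times the luciferase value and at least 4 times the DUX4 value, and the DUXC mean had to reach 1 CPM. The rule found 160 of 14736 gene rows that could be compared across all groups. The tables as used here carry no gene names, so a gene is cited as a row number of the DUXC gene table, and no symbol, position, sequence or function is given for it. Read numbers are not corrected for gene length, which is not known here, so ratios were taken between groups within 1 row. Where rows are ranked or binned by CPM, as by the 1 CPM limit, the order is one of reads and not of transcript amounts.

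DUX4 and DUXC are transcription factors with a pair of homeodomains, the DNA-binding fold of homeobox proteins. Human DUX4 is normally active in the early embryo, and its mistimed expression in skeletal muscle underlies facioscapulohumeral muscular dystrophy. DUXC is the member of this gene family found in dogs, and DUXC-ALT is an isoform of it.

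The 12 libraries came from immortalized canine myoblasts carrying the pCW57.1 vector, in which doxycycline turns on the inserted gene, with 3 libraries per insert. The inserts were canine DUXC (titled cDUXCintac), DUXC-ALT (titled cDUXCinter), human DUX4 (titled hDUX4CA) and Luciferase, the control. All samples received 1 ug/ml doxycycline for 24 h according to the protocol, but the treatment tag says DOXYCYCLINE for the 3 factor groups and NO_DOXYCYCLINE for luciferase. Any difference from luciferase therefore cannot be told apart from a difference in doxycycline, whereas the 3 factor groups share the DOXYCYCLINE tag.

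The smallest library was DUX4 replicate 3, with 15556477 gene reads, and the largest was luciferase replicate 3, with 20591041. Each insert was in its own transduced cells, so the insert and the cell population that carried it cannot be told apart. Whether the replicates were separate cultures is not stated, and p-values then reflect just the variation among these libraries, possibly technical. Without gene names, neither the muscle identity of the cells nor the level of each insert could be checked. In such bulk samples, a response of few cells and a weak response of all cells cannot be told apart.

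The 160 rows together held 6700, 6833 and 6744 CPM in the 3 DUXC libraries. They held 579.3, 612.1 and 610.9 CPM in the DUXC-ALT libraries, 990.8, 958.3 and 969.7 CPM in the DUX4 libraries and 442.4, 428.0 and 434.4 CPM in the luciferase libraries. The DUXC sum was thus far above those of the other groups in every library. The rule set its limits on the mean of each row against luciferase and DUX4. The higher DUXC sum against these groups therefore follows from the choice of rows, for single libraries in large part. DUXC-ALT did not enter the rule, but DUXC itself was chosen to be high. The sums rest most on rows with many reads. Row 8444 held 243 CPM with DUXC-ALT and 141 CPM with luciferase, and row 11060 held 119 and 17.2 CPM. The DUXC-ALT mean was above the luciferase mean in 54 of the 160 rows, or 33.8%, against 57.4% of all joined rows. The median row stood at 9.10 CPM with DUXC, 0.415 CPM with DUXC-ALT, 0.877 CPM with DUX4 and 0.437 CPM with luciferase. With luciferase 111 of the 160 rows had a mean under 1 CPM, 41 stood at 1 to 10 CPM and 8 stood at 10 CPM or more, so most were scarce in control cells and a few were clearly expressed.

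**Figure D1:**
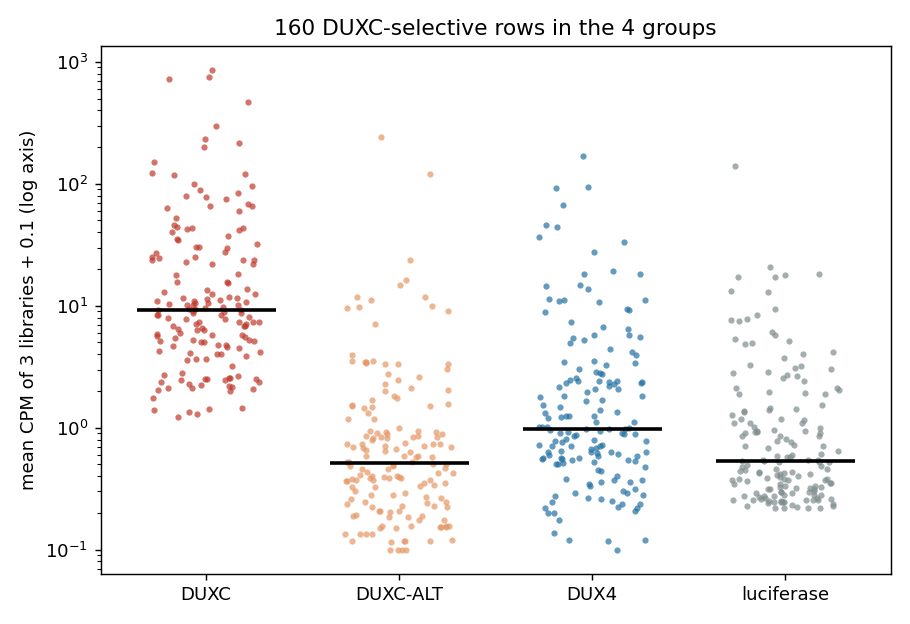
Each point is the mean CPM of the 3 libraries of a group, plus 0.1, for 1 of the 160 DUXC-selective rows, on a log axis, and the black bars mark the medians of the plotted values. The DUXC column lies highest because the rule chose it so, while the DUXC-ALT column, which the rule did not use, has a median of 0.415 CPM, near the 0.437 CPM of luciferase.

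The ratios that chose the rows are given as a description only. DUXC stood at 4.11 to 2113 times luciferase, with a median of 11.5 times, and at 4.01 to 66.7 times DUX4, with a median of 7.28 times, all computed on means plus 0.1. Over all joined rows 4.07% reached 4 times luciferase and 1.61% reached 4 times DUX4. In every one of the 160 rows each DUXC library exceeded each library of the other 3 groups, which held for 16.8% of all joined rows and which the choice of rows fixes in large part. The DUXC replicates were close to each other, with a median coefficient of variation of 6.46% over the 160 rows.

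**Figure D2:**
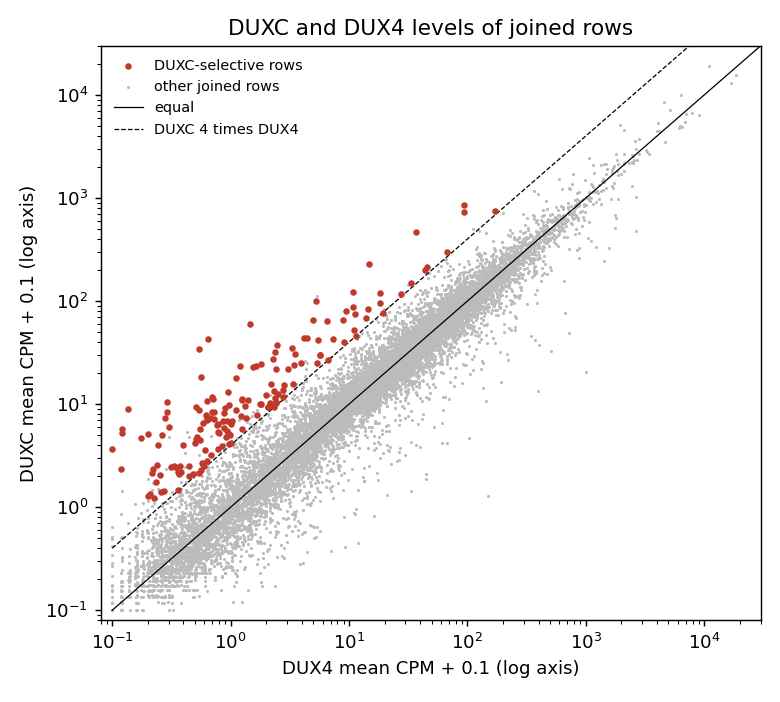
Mean CPM plus 0.1 with DUXC (vertical, log axis) is plotted against DUX4 (horizontal, log axis) for 14736 joined rows, with the 160 DUXC-selective rows in red. The red points start at the dashed line of 4 times DUX4 and reach 66.7 times, and some grey points above that line failed the luciferase or the 1 CPM limit.

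Near the limits the choice was close. Row 2639 was just inside the DUX4 limit, at 77.2 CPM with DUXC against 19.2 CPM with DUX4, and row 9843 was just outside it, at 6.23 CPM with DUXC against 1.49 CPM with DUX4. Row 2530 was just inside the luciferase limit, at 2.08 CPM with DUXC and 0.430 CPM with luciferase, and row 523 was just outside it, at 7.25 CPM with DUXC and 1.75 CPM with luciferase. No row fell just outside the 1 CPM limit, and the row nearest to it, row 4740, had 1.12 CPM with DUXC. When the rows were chosen on 2 replicates of DUXC, DUX4 and luciferase, 159, 160 and 165 rows were found. In the replicate left out, DUXC reached 4 times both other groups in 137 of 159, 138 of 160 and 137 of 165 of them, and it exceeded both in 159, 160 and 164. The left-out luciferase library still counted towards the 7 reads that a joined row needed. As the replicates may be technical, these counts describe how alike the libraries of a group were and support nothing further.

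The strongest members were not all silent with DUX4. Row 3005 had 120, 117 and 118 CPM with DUXC and 27.6, 26.7 and 28.6 CPM with DUX4. The same row had 0.200, 0.405 and 0.161 CPM with DUXC-ALT and 0.0536, 0.174 and 0.146 CPM with luciferase. DUX4 was therefore well above luciferase in this row while DUXC was 4.27 times higher still. Row 8540 had 234, 236 and 225 CPM with DUXC, 1.10, 0.462 and 0.803 CPM in DUXC-ALT libraries, 14.6, 15.2 and 14.5 CPM with DUX4 and 1.07, 1.28 and 1.17 CPM with luciferase. Here the DUXC-ALT and luciferase ranges overlapped, DUX4 lay above both, and DUXC was 15.7 times DUX4 and 198 times luciferase. Row 8561, which held the most reads of all members with DUXC, averaged 858.0 ± 23.1 CPM with DUXC, 2.49 ± 0.213 CPM with DUXC-ALT, 93.3 ± 2.53 CPM with DUX4 and 2.99 ± 0.342 CPM with luciferase (SD, n = 3 each). Row 3357 showed the same order at 83.7 ± 3.53 CPM with DUXC, 0.405 ± 0.174 CPM with DUXC-ALT, 14.4 ± 0.493 CPM with DUX4 and 0.427 ± 0.0377 CPM with luciferase (SD, n = 3 each). In each of these rows DUX4 stood between luciferase and DUXC. Row 7814 had the largest ratio to luciferase of all members, at 718, 718 and 747 CPM with DUXC and 0.268, 0.174 and 0.291 CPM with luciferase. It was also the member with the largest ratio of DUX4 to luciferase, at 98.4, 89.3 and 91.3 CPM with DUX4.

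Other members were near silent with DUX4. Row 7584 had 42.8, 46.1 and 39.0 CPM with DUXC and 0.505, 0.600 and 0.514 CPM with DUX4, the largest DUXC over DUX4 ratio by the rule. It had 0.150, 0.116 and 0.107 CPM with DUXC-ALT and 0.161, 0.0580 and 0.146 CPM with luciferase, so DUX4 was above luciferase in every library, at a very low level. Row 3404 averaged 34.3 ± 2.60 CPM with DUXC, 0.539 ± 0.0842 CPM with DUXC-ALT, 0.444 ± 0.225 CPM with DUX4 and 0.160 ± 0.0940 CPM with luciferase (SD, n = 3 each), a DUXC level 77.2 times that with DUX4. Row 10575 had 8.56, 9.94 and 7.91 CPM with DUXC and 0, 0.109 and 0 CPM with DUX4. With 2 reads over the DUX4 libraries, its ratio was 219.7, with an exact counting interval at 95% of 60.5 to 1819. Intervals and limits from reads cover counting error only.

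Rows 342, 343 and 345 lie almost side by side in the table and had the same pattern. Row 342 had 4.04, 6.75 and 4.74 CPM with DUXC, row 343 had 3.12, 5.24 and 2.28 CPM and row 345 had 5.49, 6.70 and 4.62 CPM, so replicate 2 was the highest DUXC library in all 3 rows. With DUXC-ALT all 3 rows had 0 reads, and with DUX4 they had 1, 0 and 1 reads over the group. With luciferase they had 8, 9 and 18 reads. Taking 3 reads over the DUXC-ALT group as the limit that a count of 0 allows, DUXC was at least 96.8-fold, 67.0-fold and 105.1-fold higher than DUXC-ALT in rows 342, 343 and 345. How reads that match several places were counted is not given in the sources used here, so rows with like sequence could share reads, which was not tested. What the table order stands for is not known. Of the 160 members 6.88% had another member within 2 table rows, 11.9% within 5 and 15.6% within 10, against 3.83%, 9.20% and 17.5% of all joined rows with a member that near.

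**Figure D3:**
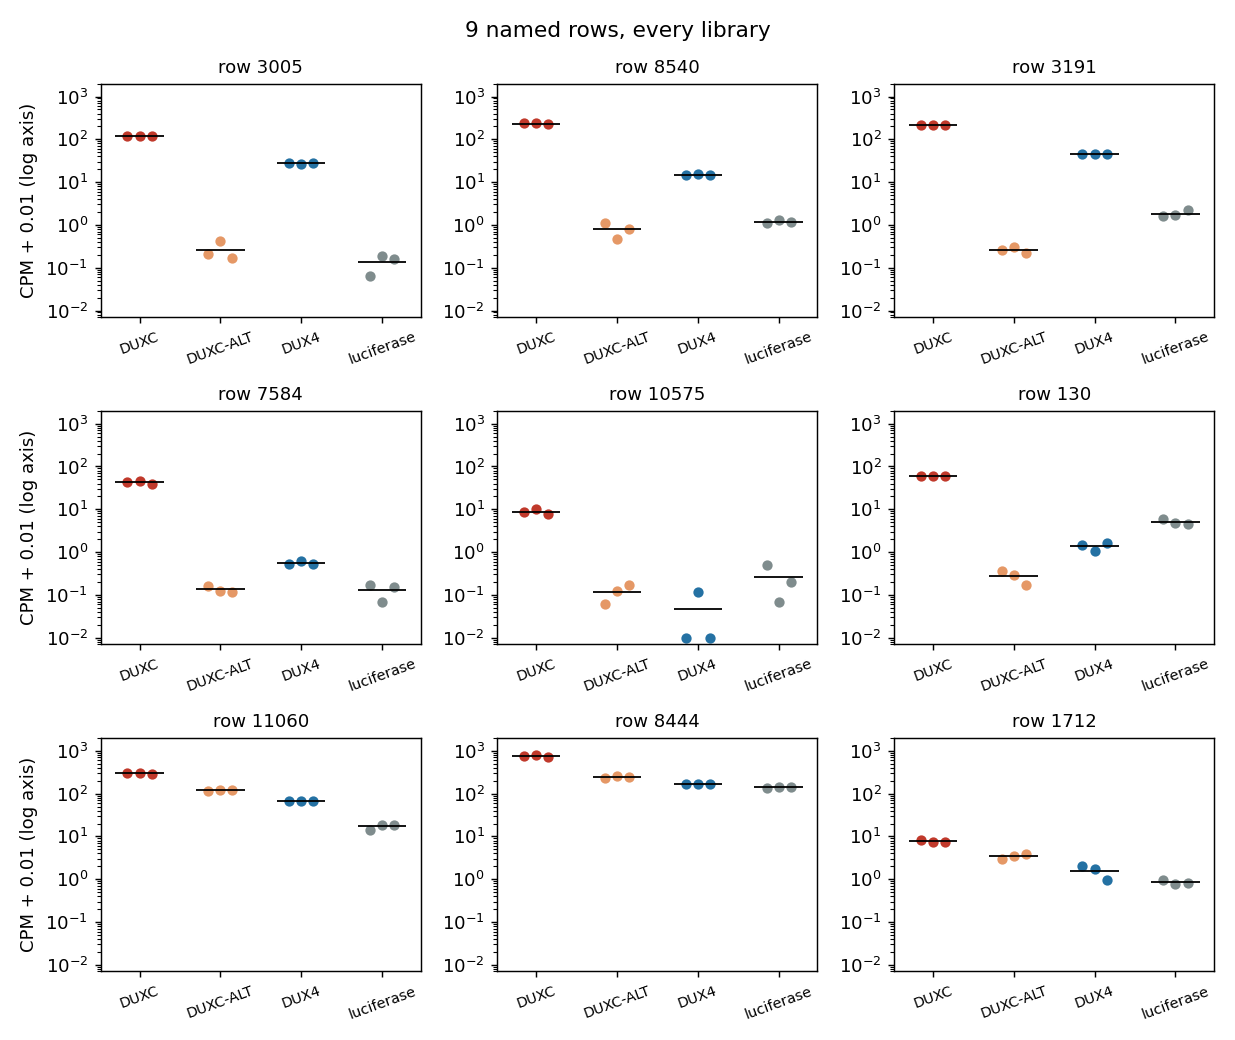
CPM plus 0.01 on a log axis in every library of 9 named rows, with bars at the group means. The top panels show rows with a clear DUX4 level below that of DUXC, the middle panels rows in which DUX4 was near or below luciferase or very low, and the bottom panels rows in which DUXC-ALT lay above both DUX4 and luciferase.

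Part of the set also stood above the control with DUX4. The DUX4 mean plus 0.1 was at least 2 times luciferase in 62 of 160 rows, or 38.8%, against 12.7% of all joined rows, and at most 0.5 times luciferase in 12 rows, or 7.50%, against 4.87%. The remaining 86 rows lay between. DUX4 and luciferase values both entered the rule, each against DUXC, so these shares describe the set and support nothing further. The 62 rows had a median of 20.1 CPM with DUXC, 2.12 CPM with DUX4 and 0.325 CPM with luciferase. The 86 rows had medians of 6.25 CPM with DUXC, 0.618 CPM with DUX4 and 0.618 CPM with luciferase, and near-equal medians with DUX4 and luciferase follow from how these rows were picked. In edgeR's quasi-likelihood fit of DUX4 against luciferase with no filter on low counts, 73 of the 160 members were called higher and 18 lower with DUX4, against 36% and 31.6% of all rows. With the filter 98 members were tested, of which 59 were called higher and 11 lower, against 38.4% and 35.8% of all rows tested, but members scarce with luciferase could pass the filter only through their DUX4 counts. Of the 72 members with 7 to 20 luciferase reads, 19 passed it and all 19 were called higher. Among the 49 members with at least 1 CPM in luciferase, 26 were called higher and 10 lower, against 34.4% and 39.7% of all rows at that level. As both groups entered the rule, nothing is read from these counts.

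A few members were called lower with DUX4 than with luciferase although DUXC stood above both. Row 2637 had 22.2, 24.6 and 23.4 CPM with DUXC, 1.20, 1.64 and 0.450 CPM with DUX4 and 5.73, 4.23 and 4.61 CPM with luciferase. No DUX4 library reached the lowest luciferase library, and the fitted log2 fold change of DUX4 over luciferase was -2.12 ± 0.22 (SE). Row 8634 averaged 12.9 ± 0.764 CPM with DUXC, 0.852 ± 0.126 CPM with DUX4 and 2.55 ± 0.403 CPM with luciferase (SD, n = 3 each). DUXC-ALT was also below luciferase in rows 2637 and 8634, at 1.73 ± 0.0191 and 1.42 ± 0.586 CPM (SD, n = 3 each). The log2 fold changes of DUXC-ALT over luciferase were -1.56 ± 0.18 (SE; adjusted p = 4.07e-12, edgeR) and -0.90 ± 0.23 (SE; adjusted p = 0.000592, edgeR). Row 14347 averaged 35.2 ± 4.69 CPM with DUXC, 11.0 ± 0.613 CPM with DUXC-ALT, 3.18 ± 0.346 CPM with DUX4 and 7.75 ± 2.01 CPM with luciferase (SD, n = 3 each), so here DUXC-ALT stood with DUXC on the upper side of luciferase and DUX4 on the lower side.

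The libraries of DUXC-ALT had no part in choosing the rows, and most of the rows did not rise with DUXC-ALT. DUXC stood at 4 times DUXC-ALT or more in 149 of 160 rows, against 4.68% of all joined rows, with DUXC itself chosen to be high. Each DUXC-ALT library lay below each luciferase library in 45 rows, or 28.1%, against 20.8% of all joined rows, and above in 22 rows, or 13.8%, against 34.6%. These shares were not particular to the DUXC-selective rows. In the mirror set of DUX4-selective rows described below they were 25.8% and 14.6%. The median ratio of DUXC-ALT to luciferase was 0.788 over the 160 rows and 1.04 over all joined rows, on means plus 0.1. Luciferase reads helped to choose the rows, since a joined row needed at least 7 of them and DUXC had to be at least 4 times luciferase. The part of that choice in the ratios of DUXC-ALT to luciferase, low or high, was not tested.

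In the edgeR fit of DUXC-ALT against luciferase 73 members passed the filter on low counts, of which 26 fell, 10 rose and 37 did not pass the threshold of 0.05 on the Benjamini-Hochberg adjusted p. Over all rows tested 25.7% fell and 25.6% rose. The 87 members that failed the filter all had under 1 CPM with luciferase. Members scarce with luciferase could pass it only through their DUXC-ALT counts. Of the 72 members with 7 to 20 luciferase reads, 1 passed, row 6150, and it was called higher. Members scarce with DUXC-ALT, such as rows 130 and 3191, could pass only through their luciferase counts. The filtered counts in both directions are therefore also shaped by the filter. With no filter all 160 were tested, and 37 fell and 13 rose, against 21.7% and 21.5% of all rows. All 49 members with at least 1 CPM in luciferase passed the filter. Among them 24 fell and 7 rose, with a median log2 fold change of -0.48, against 26.4% and 26.5% of all rows at that level and a median of 0.00462.

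Members that failed the filter were not ranked by their change with DUXC-ALT. Among those that passed the filter and the threshold, the largest fall was in row 130. This row had 58.7, 61.5 and 59.9 CPM with DUXC and 1.45, 1.04 and 1.61 CPM with DUX4. It had 0.350, 0.289 and 0.161 CPM with DUXC-ALT and 6.0, 4.70 and 4.52 CPM with luciferase. DUXC-ALT lay below DUX4 and DUX4 below luciferase with no overlap, and the log2 fold change of DUXC-ALT over luciferase was -4.28 ± 0.27 (SE; adjusted p = 3.61e-24, edgeR). Row 3191 had 220, 213 and 215 CPM with DUXC, 0.250, 0.289 and 0.214 CPM in DUXC-ALT libraries, 45.1, 46.2 and 46.2 CPM with DUX4 and 1.61, 1.68 and 2.19 CPM with luciferase. DUXC-ALT was thus on the other side of luciferase from DUXC and DUX4, by a log2 fold change of -2.92 ± 0.36 against luciferase (SE; adjusted p = 4.78e-11, edgeR). Row 281 fell by 2.27 ± 0.28 on the log2 scale (SE; adjusted p = 1.12e-10, edgeR), to 0.529 ± 0.153 CPM with DUXC-ALT against 2.47 ± 0.602 CPM with luciferase (SD, n = 3 each). Row 9474 fell by 2.24 ± 0.16 (SE; adjusted p = 4.57e-19, edgeR), to 2.02 ± 0.628 CPM with DUXC-ALT against 9.23 ± 1.54 CPM with luciferase (SD, n = 3 each).

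A small number of members, high with DUXC by choice, also rose with DUXC-ALT. Row 11060 had 304, 304 and 285 CPM with DUXC, 115, 122 and 120 CPM in DUXC-ALT libraries, 67.6, 66.1 and 66.5 CPM with DUX4 and 14.4, 18.8 and 18.4 CPM with luciferase. The 4 groups did not overlap, and DUXC-ALT exceeded luciferase by a log2 fold change of 2.72 ± 0.06 (SE; adjusted p = 1.41e-43, edgeR) and DUX4 by 0.76 ± 0.04 (SE; adjusted p = 6.21e-57, edgeR). Row 1712 had 8.08, 7.51 and 7.55 CPM with DUXC, 3.0, 3.41 and 3.80 CPM in DUXC-ALT libraries, 2.08, 1.69 and 0.964 CPM with DUX4 and 0.964, 0.754 and 0.826 CPM with luciferase. Every DUXC-ALT library exceeded every DUX4 and luciferase library, and the rise over luciferase was 1.92 ± 0.23 (SE; adjusted p = 2.35e-11, edgeR). Row 252 rose by 1.29 ± 0.21 (SE; adjusted p = 2.65e-07, edgeR), to 3.26 ± 0.389 CPM with DUXC-ALT against 1.26 ± 0.258 CPM with luciferase (SD, n = 3 each). Row 6150 rose by 1.23 ± 0.41 (SE; adjusted p = 0.00830, edgeR), but it passed the filter only through its DUXC-ALT counts. It had 0.800, 0.751 and 0.963 CPM with DUXC-ALT and 0.214, 0.406 and 0.389 CPM with luciferase. Leaving out luciferase replicate 1 gave an adjusted p of 0.0573 in edgeR, and DESeq2 gave an adjusted p of 0.0602.

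Row 8444 was the member with the highest control level. It had 749, 783 and 729 CPM with DUXC, 230, 254 and 247 CPM in DUXC-ALT libraries, 169, 169 and 171 CPM with DUX4 and 137, 140 and 146 CPM with luciferase. The groups were in that order with no overlap, and DUXC-ALT exceeded luciferase by a log2 fold change of 0.71 ± 0.03 (SE; adjusted p = 3.10e-30, edgeR) and DUX4 by 0.44 ± 0.03 (SE; adjusted p = 9.10e-41, edgeR). Rows 9830 and 7927 were also expressed in control cells and did otherwise. Row 9830 stood at 471.3 ± 5.39 CPM with DUXC, 16.3 ± 0.724 CPM with DUXC-ALT, 36.7 ± 0.809 CPM with DUX4 and 17.9 ± 1.65 CPM with luciferase (SD, n = 3 each). Row 7927 fell by 0.68 ± 0.08 on the log2 scale with DUXC-ALT against luciferase (SE; adjusted p = 1.41e-11, edgeR), at 11.8 ± 0.529 CPM with DUXC-ALT and 18.0 ± 0.237 CPM with luciferase, against 119.7 ± 1.46 CPM with DUXC (SD, n = 3 each). In row 3797, at 23.8 ± 2.66 CPM with DUXC-ALT and 20.6 ± 0.964 CPM with luciferase (SD, n = 3 each), the difference did not pass the threshold (adjusted p = 0.107, edgeR).

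**Figure D4:**
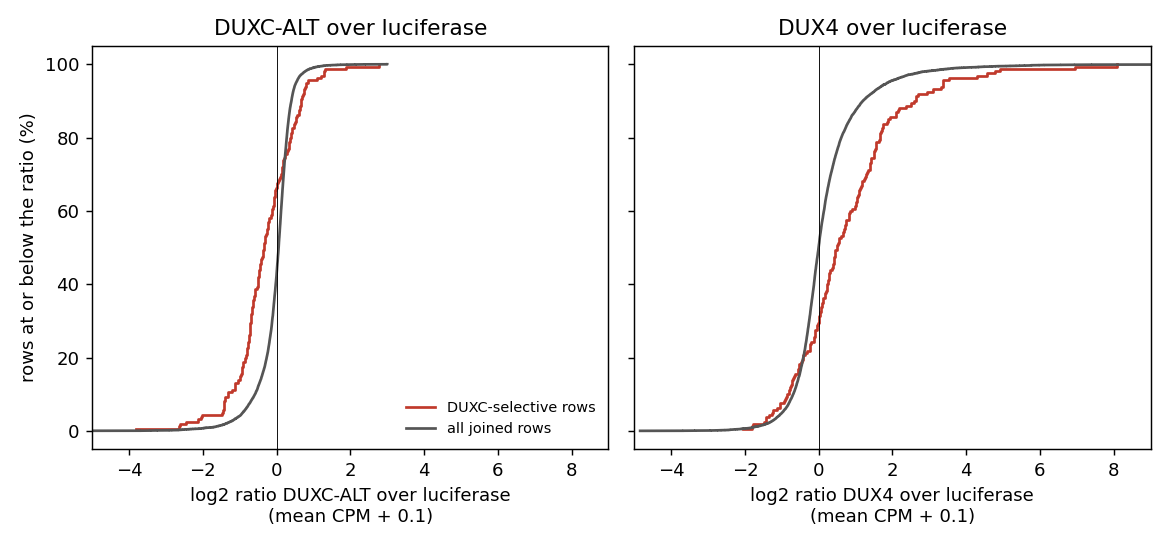
Cumulative share of rows (%) at or below each log2 ratio to luciferase, on means plus 0.1, for the 160 DUXC-selective rows (red) and all 14736 joined rows (grey), with DUXC-ALT on the left and DUX4 on the right. The red curve lies left of the grey one for DUXC-ALT up to a ratio slightly above 0, and right of it for DUX4 over most of the range.

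DUX4 and luciferase values entered the rule, each against DUXC. The counts and adjusted p-values of DUXC-ALT against DUX4, here and above, therefore describe the set and support nothing further. Set directly against DUX4, with no difference in the doxycycline label, DUXC-ALT was lower in 84 and higher in 10 of the 159 members tested with no filter on low counts, and 65 did not pass the threshold. These were 52.8% and 6.29% of them, against 35.3% and 35.1% of all rows. Among the 49 members with at least 1 CPM in luciferase, which all passed the filter, 29 were lower and 7 higher, against 35.3% and 40.8% of all rows at that level. With the filter 98 members were tested, and 64 were lower and 9 higher, against 37.9% and 37.8% of all rows tested. Members scarce in control cells could pass it through their DUX4 counts, so this last count is also shaped by the filter. Of the 72 members with 7 to 20 luciferase reads, 21 passed it, and 19 of those were lower. The libraries did not overlap in 83 of 160 rows with DUXC-ALT below DUX4 and in 14 rows with DUXC-ALT above, or 51.9% and 8.75%, against 32.6% and 40.3% of all joined rows. With no filter the median log2 fold change of DUXC-ALT over DUX4 was -0.93 over the members and -0.00488 over all rows. Row 3191 differed by -7.56 ± 0.14 on the log2 scale (SE; adjusted p = 1.11e-140, edgeR), at 0.251 ± 0.0375 CPM with DUXC-ALT and 45.8 ± 0.644 CPM with DUX4 (SD, n = 3 each). Row 7814 differed by more, at -9.54 ± 0.13 (SE; adjusted p = 4.27e-166, edgeR), with 0.128 ± 0.134 CPM with DUXC-ALT and 93.0 ± 4.76 CPM with DUX4 (SD, n = 3 each). Rows 3191 and 7814 held just 14 and 7 DUXC-ALT reads, and their SE does not cover the counting error of so few reads. Row 14347 was higher with DUXC-ALT by 1.72 ± 0.13 (SE; adjusted p = 5.75e-30, edgeR).

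The mirror set, chosen by the same rule with DUX4 and DUXC exchanged, held 151 rows. DUXC-ALT gave a median ratio to luciferase of 0.885 there, 0.788 in the DUXC-selective rows and 0.941 in 229 rows at 4 times luciferase or more with both factors. The DUXC-ALT mean was above the luciferase mean in 33.8% of the mirror rows and 33.8% of the DUXC-selective rows. It was above in 44.1% of the 229 rows. The other factor, on means plus 0.1, was at least 2 times luciferase in 62 of the 160 DUXC-selective rows and in 62 of the 151 DUX4-selective rows. No test of a difference between the sets was made, since their members were chosen on these values.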

How the data were processed

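Polyadenylated RNA of 12 libraries was sequenced from TruSeq RNA v2 libraries, per the labels' protocols. The authors deposited raw read counts per gene in 3 tables, each with the 3 luciferase libraries and 1 factor. The submitters' processing notes name canFam3, CASAVA, TopHat2 2.1.0, Bowtie2 2.2.6 and DESeq2. For the counting tool and its use of strand, nothing is given in the sources used here. The smallest row total was 7 reads. Tables were joined by position over rows with at least 7 luciferase reads, which hold the same luciferase counts in the same order, and 2339 of 17075 DUXC rows were left out. Normalized and repeat tables were not used.

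CPM used the total of each library. Tests on the counts used edgeR 4.0.16 under R 4.3.3 (TMM, filterByExpr, robust quasi-likelihood fit, Benjamini-Hochberg adjustment over all rows of the fit, threshold 0.05), with the 6 libraries compared. The SE was the log2 fold change over the square root of F. It can understate the error where a group held few reads, as with 15, 14 and 7 DUXC-ALT reads in rows 130, 3191 and 7814. The procedure was tested on simulated data with 200 changed rows, far fewer than were called in the real fits. That test does not show how the fits behave when so many rows change. Alternatives were DESeq2 1.42.0, RLE scaling, no filter, each replicate left out and a replicate term, and other limits of the rule. Where a group had 0 reads, 3 reads over the group were taken. Named rows were those with the highest DUXC or luciferase level, the extreme ratios and the largest DUXC-ALT changes among tested members past the threshold. Others were next to the limits of the rule, of which the text prints the nearest. Rows 14347 and 343 were chosen after their values were seen. The members and lists were chosen with earlier results of these data known, and the choice of rows on 2 replicates was added after the data were seen.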

Additional observations from a re-analysis of the deposited data

How the results depend on the processing

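The number of DUXC-selective rows was 247 at 3 times, 81 at 6 times and 91 with at least 20 luciferase reads, against 160. The luciferase counts, by which the tables were joined in order, occurred in no other row for 86 of the 160 members and for 13106 of all 14736 joined rows. An offset of 0.5 CPM gave 112 rows. The other settings of the rule gave 110 to 167 rows, and 157 to 165 with replicates left out, of which 138 of the 160 were kept in each of the 9 sets without 1 library. With the lowest DUXC library set against the highest luciferase and DUX4 library, 110 rows remained. For DUXC-ALT against luciferase, DESeq2 gave 6 members raised, against 10, and 2622 of all rows, against 3283. For DUX4 against luciferase, 18 members were lowered with no filter, against 11, and 5395 of all rows, against 4881. That was 11.2% of the members tested with and without the filter. Without 1 library at a time, the raised members numbered 7 to 11 and the lowered 22 to 27 for DUXC-ALT against luciferase, 6 to 10 and 62 to 69 for DUXC-ALT against DUX4, and 54 to 65 and 9 to 13 for DUX4 against luciferase. Over all rows it gave 2929 to 3221 raised and 3026 to 3237 lowered, 4755 to 4936 and 4816 to 4888, and 5045 to 5271 and 4626 to 4873 in those comparisons. The cause of these shifts was not tested.

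Same-numbered libraries of DUXC-ALT, DUX4 and luciferase did not deviate together, with correlations of -0.0246 to 0.0202, so the numbers were not taken to pair them. DUXC libraries entered no such fit and were not checked. With the replicate number as a block, 10 members were raised and 26 lowered for DUXC-ALT against luciferase, 8 and 65 for DUXC-ALT against DUX4, and 58 and 11 for DUX4 against luciferase. Over all rows the block gave 3324 raised and 3309 lowered, 4941 and 4958, and 5236 and 4887 in those comparisons. Of 230 recomputed log2 fold changes of named rows 219 kept their direction and side of the threshold and 11 kept only the direction, all in rows 252 and 6150. Reads limit the rows that are scarce: 87 members failed the filter for DUXC-ALT against luciferase.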
